A study of Mus musculus with 6 samples.

Results

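The genes described here encode the V(D)J recombinase and the end joining factors that repair its cuts. They were 10 of the 55536 genes in a count table of thymocyte messenger RNA, taken by symbol (Rag1, Rag2, Dntt, Dclre1c, Prkdc, Xrcc4, Xrcc5, Xrcc6, Lig4 and Nhej1), and all 10 were among the 18690 genes with enough counts to be tested. The first 3 are treated as the lymphoid-specific recombinase genes and the other 7 as general end joining genes. The thymocytes (T cells still maturing in the thymus) came from 3 mice labelled Il3ra-/-, after the gene for the alpha chain of the interleukin-3 receptor, and from 3 wildtype mice (Il3ra+/+), with 1 library per mouse and no treatment. The sources used here do not give the age, strain background or sex of the mice or the deleted part of the allele.

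V(D)J recombination assembles antigen receptor genes from separate segments in developing lymphocytes. RAG1 and RAG2 cut the DNA beside the segments, the ubiquitous non-homologous end joining machinery rejoins the ends, and terminal transferase, the product of Dntt, adds untemplated bases to the junctions. In the thymus the recombinase acts first at the double-negative stage, on the beta, gamma and delta chain genes, and again at the double-positive stage, on the alpha chain genes, and its genes are switched off after positive selection.

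Total counts ran from 59135254 to 82684219 in the libraries labelled Il3ra-/- and from 55747682 to 66534218 in the Il3ra+/+ libraries. Il3ra itself had 7.95, 8.02 and 7.39 CPM in the libraries labelled Il3ra-/-, against 7.80, 6.51 and 6.11 CPM in Il3ra+/+ libraries, a fold of 1.14. Its whole-gene count therefore does not check the genotype labels, and directions are given for the libraries as labelled. CPM is the count scaled to a common library size, here adjusted by TMM. Replicate 1 of each genotype stood apart by Xist, with 2118 CPM in the library labelled Il3ra-/- and 1477 CPM in the Il3ra+/+ library, against at most 0.873 CPM in the other 4 libraries. The thymocyte genes Cd3d, Cd3e, Cd3g, Lck, Trac, Cd4 and Cd8a each had 230.4 CPM or more in every library. All 7 were fitted lower in the libraries labelled Il3ra-/-, against 48.8% of all tested genes, with a median fold of 0.869. In 5 of them all 3 libraries labelled Il3ra-/- lay below all 3 Il3ra+/+ libraries, against 9.38% of all tested genes. Of the 7, 0 passed the test over all genes given next. Over all tested genes 17 passed a Benjamini-Hochberg adjusted p of 0.05 by edgeR's quasi-likelihood test, 3 higher and 14 lower in the libraries labelled Il3ra-/-. Adjusted p-values below come from that test unless another is named.

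The sequences just before the starts of 5 of these genes are shown as description. A link between these sequences and the levels below was not tested. Each line holds the 250 bases upstream of a RefSeq transcript start on GRCm38.p6, on the strand of the gene. For Xrcc6 that stretch lies inside the gene as annotated here, which begins at 81987835, so its annotated start is another one. Capitals mark E boxes (CANNTG on either strand) in Rag1, Rag2, Dntt and Xrcc5. This broad motif covers sites of the E proteins known to act in thymocytes and of other factors. In Xrcc6 capitals mark a match to one of the E2F motifs TTTGGCGC, TTTCCCGC and TTTCGCGC, or its reverse complement.
Rag1 (chr2:101649533-101649782, minus strand): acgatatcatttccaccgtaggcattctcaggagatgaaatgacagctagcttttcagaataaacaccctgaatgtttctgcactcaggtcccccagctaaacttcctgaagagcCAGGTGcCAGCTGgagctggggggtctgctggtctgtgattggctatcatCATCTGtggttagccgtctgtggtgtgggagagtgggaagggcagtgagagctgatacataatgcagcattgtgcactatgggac
Rag2 (chr2:101624462-101624711, plus strand): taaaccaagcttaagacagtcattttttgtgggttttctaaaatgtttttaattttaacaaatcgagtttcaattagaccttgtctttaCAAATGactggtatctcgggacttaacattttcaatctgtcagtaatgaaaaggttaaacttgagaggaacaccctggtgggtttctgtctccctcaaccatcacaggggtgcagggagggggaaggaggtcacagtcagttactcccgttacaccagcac
Dntt (chr19:41029025-41029274, plus strand): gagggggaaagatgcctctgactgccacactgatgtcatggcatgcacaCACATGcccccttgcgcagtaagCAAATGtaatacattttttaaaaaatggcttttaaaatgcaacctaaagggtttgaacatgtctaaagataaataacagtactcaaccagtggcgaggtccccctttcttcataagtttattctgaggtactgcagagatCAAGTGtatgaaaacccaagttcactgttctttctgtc
Xrcc5 (chr1:72307171-72307420, plus strand): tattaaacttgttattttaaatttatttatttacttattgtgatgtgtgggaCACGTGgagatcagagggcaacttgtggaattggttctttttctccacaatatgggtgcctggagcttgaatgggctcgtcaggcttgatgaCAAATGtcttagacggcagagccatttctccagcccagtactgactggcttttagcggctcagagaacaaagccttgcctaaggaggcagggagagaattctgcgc
Xrcc6 (chr15:82016119-82016368, plus strand): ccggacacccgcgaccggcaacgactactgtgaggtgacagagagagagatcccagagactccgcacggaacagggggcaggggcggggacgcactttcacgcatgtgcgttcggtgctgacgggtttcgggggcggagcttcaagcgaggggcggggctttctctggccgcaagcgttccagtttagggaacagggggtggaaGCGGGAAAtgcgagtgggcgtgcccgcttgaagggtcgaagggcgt
Such sequences were matched for 9 of the 10 members. The recombinase genes had 3 CpG dinucleotides there in Rag1, 3 in Rag2 and 2 in Dntt, counts that are common, since 37.8% of all promoters held at most 3 and 29.0% at most 2. They had observed-to-expected CpG ratios of 0.19, 0.28 and 0.19. Among the end joining genes Xrcc6, Xrcc4 and Lig4 had 25, 26 and 27 CpG and ratios of 1.01, 0.91 and 0.91, whereas Xrcc5, Dclre1c and Nhej1 had 5, 8 and 9 CpG and ratios of 0.41, 0.43 and 0.61. The median over 32851 promoters of the same length was 6 CpG and a ratio of 0.37. Rag1 had 3 E boxes, Dntt 3, Xrcc5 2, Dclre1c 2, Rag2 1, Xrcc6 1, Lig4 1, Nhej1 1 and Xrcc4 0, and 66.2% of all promoters held at least 1. GATA on either strand was found in Rag1 at 4 places, in Xrcc4 and Nhej1 at 2 each, and in Rag2 and Dntt at 1 each, with a share of 53.6% of all promoters. An E2F match was found in Xrcc6 alone among these 9, with its first base 46 bases before the start, and 1.53% of all promoters held one. A match describes these letters and is not evidence of binding.

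None of the 10 genes passed the test over all genes, where 0.091% of the 18690 tested genes did (0.0161% higher and 0.0749% lower in the libraries labelled Il3ra-/-). At an unadjusted p under 0.05 stood Rag1 and Dclre1c, both lower in the libraries labelled Il3ra-/-, and Xrcc6, which was higher there. These 3 of 10 compare with 14.6% of all tested genes at that level, 8.01% higher and 6.6% lower. By DESeq2 and limma-voom the number of members past the adjusted threshold was likewise 0. The libraries of the genotypes did not overlap in 2 of the 10 members, Rag1 and Xrcc6, a share close to the 20.3% of all tested genes. The median log2 fold change, labelled Il3ra-/- over Il3ra+/+, was -0.15 over the 3 recombinase genes and 0.01 over the 7 end joining genes, against 0.01 over all tested genes, of which 51.2% were fitted higher and 48.8% lower. In bulk RNA, fewer cells of a type and less RNA per cell cannot be told apart.

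**Figure D1:**
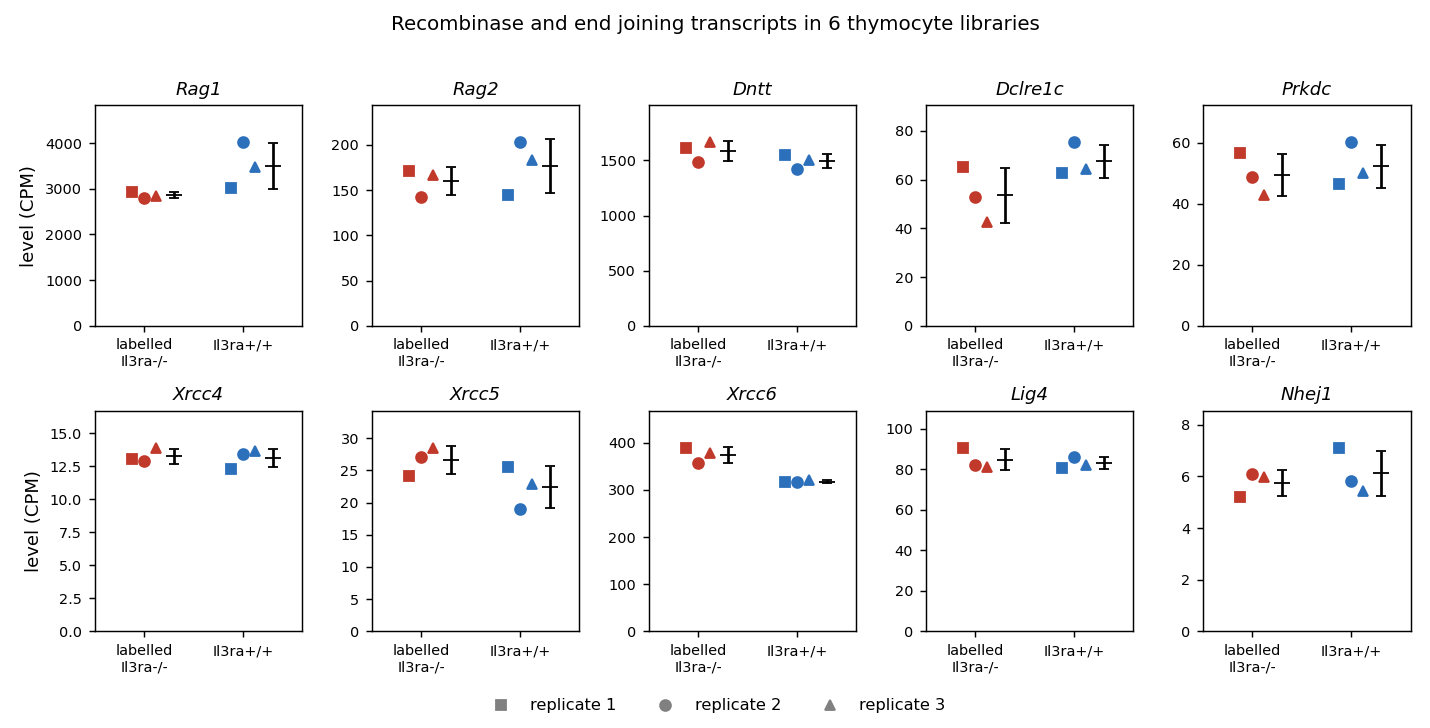
Level of each gene in CPM (vertical axes, from 0, a separate scale per gene) in the 3 libraries labelled Il3ra-/- (left, red) and the 3 Il3ra+/+ libraries (right, blue); symbols give the replicate number and bars the mean ± SD. The genotypes do not overlap in Rag1 and Xrcc6, and Il3ra+/+ replicate 2 is the highest library for Rag1, Rag2, Dclre1c and Prkdc.

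Rag1, the catalytic subunit of the recombinase (ENSMUSG00000061311, chromosome 2, 101638282 to 101649501, minus strand), was the most abundant of the 10 transcripts by CPM, at rank 19 of the 18690 tested genes. It had 2934, 2808 and 2844 CPM in the libraries labelled Il3ra-/-, against 3018, 4022 and 3469 CPM in Il3ra+/+ libraries. The libraries labelled Il3ra-/- lay close together below all 3 Il3ra+/+ libraries, which were spread more widely. The means were 2862 ± 64.6 CPM and 3503 ± 503 CPM (SD, n = 3 each). The fold was 0.817 (95% interval 0.673 to 0.992; edgeR adjusted p = 0.324). Without Il3ra+/+ replicate 2, the highest library, the log2 fold change was -0.18 in place of -0.29. With library totals in place of TMM the genotypes overlapped, since the lowest Il3ra+/+ library then had 2971 CPM and the highest library labelled Il3ra-/- 3005 CPM. The log2 fold change was -0.31 without the library labelled Il3ra-/- replicate 1 and -0.39 without Il3ra+/+ replicate 1, the lowest of its genotype. Between the replicates 1, the Xist-high libraries and only 1 per genotype, the log2 difference was -0.04. Between the means of the other libraries it was -0.40.

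Rag2, the regulatory subunit that reads histone marks (ENSMUSG00000032864, chromosome 2, 101624718 to 101632529, plus strand), lies beside Rag1 in the opposite orientation. It had 171, 142 and 166 CPM in the libraries labelled Il3ra-/-, against 145, 203 and 183 CPM in Il3ra+/+ libraries. Its genotypes overlapped, with the lowest Il3ra+/+ library within the range of those labelled Il3ra-/-. The fold was 0.904 (95% interval 0.743 to 1.10; edgeR adjusted p = 0.644). Its log2 fold change of -0.15 was -0.03 without Il3ra+/+ replicate 2, -0.06 without the library labelled Il3ra-/- replicate 2 and -0.27 without Il3ra+/+ replicate 1. The 2 Xist-high libraries differed by 0.24 on the log2 scale, higher in the one labelled Il3ra-/-, whereas the means of the other libraries differed by -0.32.

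Dntt, terminal transferase (ENSMUSG00000025014, chromosome 19, 41029275 to 41059525, plus strand), had the higher mean in the libraries labelled Il3ra-/-. Its levels were 1611, 1486 and 1666 CPM there, against 1546, 1421 and 1506 CPM in Il3ra+/+ libraries. The libraries of the genotypes overlapped, and the fold was 1.06 (95% interval 0.905 to 1.25; edgeR adjusted p = 0.734). The coefficient of variation of Dntt was 5.82% in the libraries labelled Il3ra-/- and 4.28% in Il3ra+/+ libraries. For Rag1 it was 2.26% in the libraries labelled Il3ra-/- and 14.4% in Il3ra+/+ libraries, so the least variable recombinase gene was Rag1 in the libraries labelled Il3ra-/- and Dntt in Il3ra+/+ libraries.

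Levels per length put Dntt above Rag1 and both far above Rag2. On the scale of CPM per kilobase of annotated exon, Dntt had 693 ± 40.3 in the libraries labelled Il3ra-/- and 651 ± 27.8 in Il3ra+/+ libraries, Rag1 433 ± 9.77 and 530 ± 76.1, and Rag2 46.7 ± 4.47 and 51.6 ± 8.66 (SD, n = 3 each). The order Dntt, Rag1, Rag2 held in each of the 6 libraries. Dntt was at rank 59, Rag1 at rank 89 and Rag2 at rank 1159 of all tested genes by this measure. Within a library, where the scaling cancels, counts per kilobase of Rag1 exceeded those of Rag2 by 8.90, 10.2 and 8.86 times in the libraries labelled Il3ra-/-, against 10.8, 10.3 and 9.83 times in Il3ra+/+ libraries. The mean log2 ratio differed by -0.15, labelled Il3ra-/- minus Il3ra+/+, which did not pass (exact two-sided permutation p = 0.20; 3 against 3 libraries cannot go below 0.10). The ratio of Dntt to Rag1, chosen after its values were seen and therefore not tested, was 1.58, 1.53 and 1.69 in the libraries labelled Il3ra-/-, against 1.48, 1.02 and 1.25 in Il3ra+/+ libraries. It did not overlap between the genotypes.

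Ku binds the free DNA ends first, as a dimer of the products of Xrcc6 (Ku70) and Xrcc5 (Ku80). Xrcc6 (ENSMUSG00000022471, chromosome 15, 81987835 to 82040085, plus strand) had 389, 356 and 378 CPM in the libraries labelled Il3ra-/-, against 316, 316 and 320 CPM in Il3ra+/+ libraries. Each library labelled Il3ra-/- lay above each Il3ra+/+ library. The means were 374 ± 16.8 CPM and 317 ± 2.70 CPM (SD, n = 3 each). The fold was 1.18 (95% interval 1.02 to 1.36; edgeR adjusted p = 0.282). The log2 difference was 0.30 between the Xist-high libraries and 0.21 between the means of the others. In all 15 other fits, which changed the test, the scaling, the filter, the block or the libraries used, its log2 fold change stayed between 0.21 and 0.28.

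Xrcc5 (ENSMUSG00000026187, chromosome 1, 72307421 to 72394952, plus strand) had 24.2, 27.1 and 28.5 CPM in the libraries labelled Il3ra-/-, against 25.5, 19.0 and 22.9 CPM in Il3ra+/+ libraries. The replicates 1 crossed the genotypes here, and the fold was 1.19 (95% interval 0.978 to 1.44; edgeR adjusted p = 0.401). Its log2 fold change was 0.14 without Il3ra+/+ replicate 2 and 0.41 without both replicates 1. The transcripts of the Ku subunits were far from equal in amount, with 83.7 ± 3.75 CPM per kilobase for Xrcc6 and 10.4 ± 0.860 for Xrcc5 in the libraries labelled Il3ra-/-, and 70.9 ± 0.604 and 8.78 ± 1.28 in Il3ra+/+ libraries (SD, n = 3 each). Counts per kilobase of Xrcc5 as a ratio to Xrcc6 were 0.109, 0.133 and 0.132 in the libraries labelled Il3ra-/-, against 0.141, 0.105 and 0.125 in Il3ra+/+ libraries. These overlapped (difference in mean log2 ratio 0.01, exact two-sided permutation p = 1). The annotated exons of Xrcc6 share 344 bases, 7.69% of their length, with Desi1 on the other strand, which had 242 ± 4.96 CPM and 255 ± 1.42 CPM, so reads there cannot be told apart if the counting ignored strand.

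Ku recruits the kinase encoded by Prkdc, which activates the nuclease Artemis, the product of Dclre1c, to open the hairpins that RAG leaves on coding ends. Dclre1c (ENSMUSG00000026648, chromosome 2, 3424131 to 3464130, plus strand) had 65.1, 52.6 and 42.8 CPM in the libraries labelled Il3ra-/-, against 62.7, 75.3 and 64.4 CPM in Il3ra+/+ libraries. The library labelled Il3ra-/- replicate 1 lay among the Il3ra+/+ libraries, while replicates 2 and 3 lay below them. The fold was 0.793 (95% interval 0.636 to 0.989; edgeR adjusted p = 0.318). Without the Xist-high replicate 1 of both genotypes Dclre1c was the single member to pass, at a log2 fold change of -0.55 and an adjusted p of 0.0456 by edgeR, in a fit that called 3.98% of all tested genes. The log2 difference between the Xist-high libraries was 0.05. Without the library labelled Il3ra-/- replicate 1 the log2 fold change was -0.50, and without replicate 3 of that genotype it was -0.20.

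Prkdc (ENSMUSG00000022672, chromosome 16, 15637866 to 15842235, plus strand) had 56.7, 48.8 and 43.0 CPM in the libraries labelled Il3ra-/-, against 46.6, 60.2 and 50.0 CPM in Il3ra+/+ libraries. The genotypes overlapped throughout, and the fold was 0.948 (95% interval 0.780 to 1.15; edgeR adjusted p = 0.819). Its annotated start lies 466 bases from that of Mcm4, a subunit of the replicative helicase transcribed the other way. Mcm4 had 174, 159 and 183 CPM in the libraries labelled Il3ra-/-, against 129, 121 and 143 CPM in Il3ra+/+ libraries, with no overlap, a fold of 1.31 and an adjusted p of 0.151 by edgeR. The neighbouring genes thus differed in pattern, with a ratio of Prkdc to Mcm4, in counts per kilobase, of 0.0887, 0.0835 and 0.0641 in the libraries labelled Il3ra-/-, against 0.0981, 0.135 and 0.0954 in Il3ra+/+ libraries. This ratio was computed after the values were seen and was not tested.

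The ligation genes had folds between 0.941 and 1.02. Lig4, the DNA ligase of end joining (ENSMUSG00000049717, chromosome 8, 9969049 to 9977686, minus strand), had 90.7, 82.0 and 81.4 CPM in the libraries labelled Il3ra-/-, against 80.6, 86.4 and 82.2 CPM in Il3ra+/+ libraries. Xrcc4, which holds and stabilises the ligase (ENSMUSG00000021615, chromosome 13, 89774027 to 90089608, minus strand), had 13.0, 12.9 and 13.9 CPM in the libraries labelled Il3ra-/-, against 12.3, 13.4 and 13.6 CPM in Il3ra+/+ libraries. Nhej1, which encodes the Xrcc4-like factor that aligns the ends (ENSMUSG00000026162, chromosome 1, 74967139 to 75125200, minus strand), had 5.19, 6.11 and 5.98 CPM in the libraries labelled Il3ra-/-, against 7.11, 5.83 and 5.42 CPM in Il3ra+/+ libraries. The genotypes overlapped in all 3. The folds were 1.02 for Lig4 (95% interval 0.890 to 1.17), 1.01 for Xrcc4 (0.846 to 1.21) and 0.941 for Nhej1 (0.731 to 1.21), with adjusted p of 0.916, 0.970 and 0.848 by edgeR. These intervals bound the differences the libraries allow and do not show that there were none. The start of Lig4 lies 21 bases from that of Abhd13, and that of Xrcc4 lies 485 bases from that of Tmem167, both transcribed the other way. Abhd13 had a fold of 1.002 and Tmem167 a fold of 1.14, with adjusted p of 0.994 and 0.391 by edgeR.

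**Figure D2:**
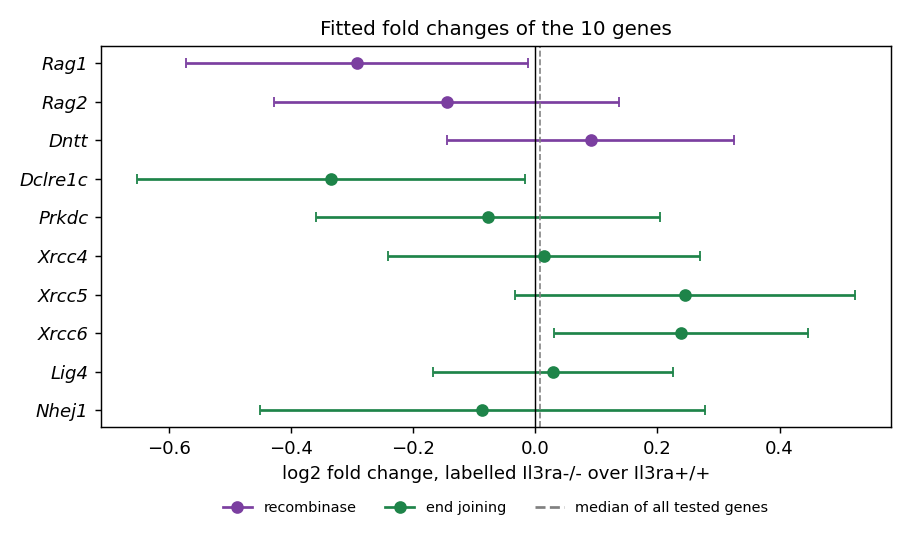
Fitted log2 fold change of each gene (labelled Il3ra-/- over Il3ra+/+, horizontal axis) with its 95% interval from edgeR; the dashed line is the median of all tested genes, 0.01. The intervals of Rag1, Dclre1c and Xrcc6 exclude 0 before adjustment over all genes, and no gene passes after it.

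Per kilobase the end joining transcripts ranged from 3.13 CPM for Xrcc4 to 77.3 CPM for Xrcc6 as means over the 6 libraries. Between these stood Lig4 at 16.1, Xrcc5 at 9.59, Dclre1c at 6.49, Nhej1 at 5.31 and Prkdc at 3.86. Xrcc5 and Dclre1c, Dclre1c and Nhej1, and Prkdc and Xrcc4 each changed places in at least 1 library. In the libraries labelled Il3ra-/-, Dclre1c had 5.74 ± 1.202 and Nhej1 5.15 ± 0.447 CPM per kilobase, and Prkdc had 3.76 ± 0.521 and Xrcc4 3.14 ± 0.132. The summed level of the 3 recombinase genes exceeded that of the 7 end joining genes, per kilobase, by 9.01, 9.005 and 9.44 times in the libraries labelled Il3ra-/-, against 10.2, 11.1 and 10.7 times in Il3ra+/+ libraries. The genotypes did not overlap, and the mean log2 ratio differed by -0.22, labelled Il3ra-/- minus Il3ra+/+. Rag1, Dntt and Xrcc6 set most of these sums. With each gene given equal weight, as the mean of log2 CPM, the difference was -0.11. The members were chosen with results known, so this ratio was not tested.

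**Figure D3:**
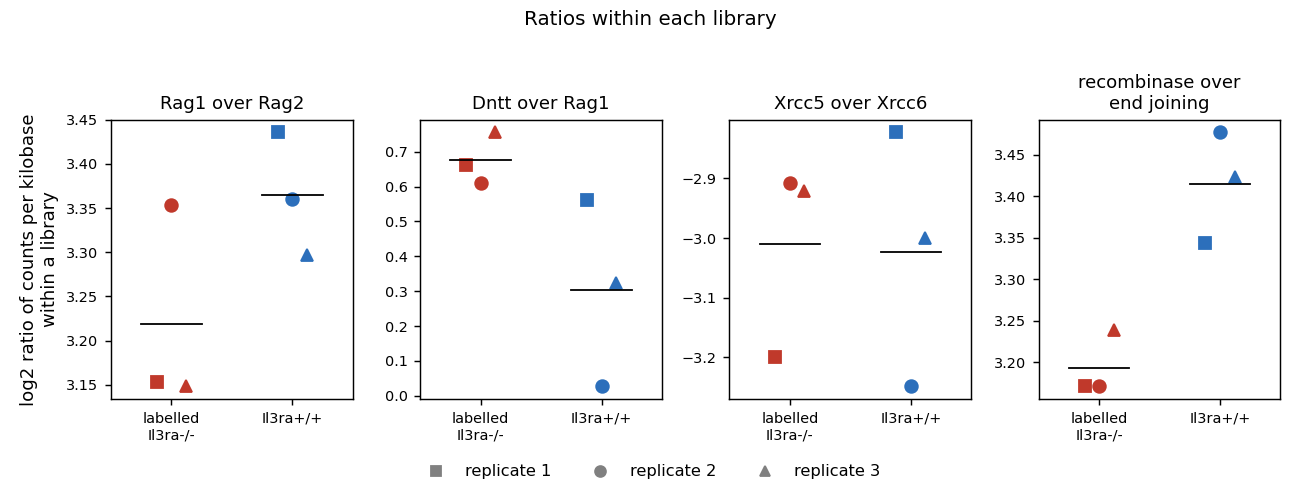
Log2 ratios of counts per kilobase within each library (vertical axes, a separate scale per ratio, not from 0) for the 3 libraries labelled Il3ra-/- (left, red) and the 3 Il3ra+/+ libraries (right, blue); lines are means. Dntt over Rag1 is higher and recombinase over end joining lower in every library labelled Il3ra-/- than in any Il3ra+/+ library, while Rag1 over Rag2 and Xrcc5 over Xrcc6 overlap.

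Accessory end joining genes were fitted both ways. Of 12 tested, 6 were fitted higher and 6 lower, with a median log2 fold change of 0.03 (-0.10 without Il3ra+/+ replicate 3) and 0 past the adjusted threshold. H2afx, the histone variant phosphorylated around breaks, had 218, 192 and 263 CPM in the libraries labelled Il3ra-/-, against 190, 125 and 159 CPM in Il3ra+/+ libraries. It did not overlap between the genotypes, at a fold of 1.42 (edgeR adjusted p = 0.208). Paxx, a scaffold related to Xrcc4, and Polm, the polymerase nearest to terminal transferase, had folds of 0.855 and 0.840.

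Alternative end joining genes, which join ends without Ku or after resection, were fitted higher in the libraries labelled Il3ra-/- in all 8 tested, with a median log2 fold change of 0.27. In 6 of them the genotypes did not overlap, all higher in the libraries labelled Il3ra-/-, against 10.9% of all tested genes in that direction. None passed over all genes, and 5 had an unadjusted p under 0.05, all higher, against 8.01% of all tested genes. Rbbp8, which starts resection, had 44.6, 38.05 and 46.5 CPM in the libraries labelled Il3ra-/-, against 29.7, 31.5 and 36.7 CPM in Il3ra+/+ libraries (fold 1.32, adjusted p = 0.181 by edgeR). Rad50 and Nbn, subunits of the complex that senses breaks, had folds of 1.25 and 1.27, and Parp1, the break sensor, had a fold of 1.16. Mre11a, of the same complex as Rad50 and Nbn, had a fold of 1.04 with overlapping genotypes (adjusted p = 0.826 by edgeR). Lig3 had a fold of 1.001. Without the Xist-high replicates 1 the median of the list was 0.16.

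Cofactors of RAG and genes of its turnover were also fitted higher, in 8 of 8, against 51.2% of all tested genes. Ccna2 of this list is also in the cell cycle list below, so these lists are not separate. Hmgb2, a DNA-bending protein that assists RAG cutting, had 1026, 770 and 952 CPM in the libraries labelled Il3ra-/-, against 638, 506 and 684 CPM in Il3ra+/+ libraries. Hmgb1, its relative, had 924, 861 and 948 CPM there, against 671, 707 and 821 CPM in Il3ra+/+ libraries. Neither gene overlapped between the genotypes, with log2 fold changes of 0.59 and 0.31 and adjusted p of 0.151 and 0.246 by edgeR. Ccna2, a cyclin whose kinase marks RAG2 protein for destruction in S phase, had a log2 fold change of 0.58, and Skp2, the ubiquitin ligase subunit that recognises the mark, one of 0.26 (edgeR adjusted p = 0.151 and 0.453). Without the Xist-high replicates 1 the median log2 fold change of the list was 0.14, against 0.26 over the 6 libraries.

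Transcription factors known to act at the Rag locus had a median near 0, with 4 of 15 fitted higher, 11 fitted lower and a median log2 fold change of -0.05. By edgeR 0 passed over all genes and 0 had an unadjusted p under 0.05. Myb had a fold of 0.841, Lef1 of 0.856, Foxp1 of 0.884 and Satb1 of 0.881, and the E protein genes Tcf3 and Tcf12 had 0.964 and 1.07.

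Lists of stage and division genes were counted in the same way. The cell cycle list was fitted higher in the libraries labelled Il3ra-/- in 15 of 15 genes (median log2 fold change 0.49, 14 without overlap, against 10.9% of all tested genes that were higher without overlap), and the double-positive list was fitted lower in 9 of 10 (median -0.27, 6 without overlap, against 9.38% of all tested genes that were lower without overlap). The double-negative list was fitted higher in 9 of 10 genes, but the genotypes overlapped in all 10. Its median of 0.29 was 0.09 without the library labelled Il3ra-/- replicate 3 and 0.18 without Il3ra+/+ replicate 1. It was 0.41 without the library labelled Il3ra-/- replicate 1 and 0.34 without Il3ra+/+ replicate 3. The single-positive list had 4 fitted higher and 4 lower. No gene of these 4 lists passed over all genes. The part of cell stage or division in the levels of the recombinase and end joining genes was not tested.

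**Figure D4:**
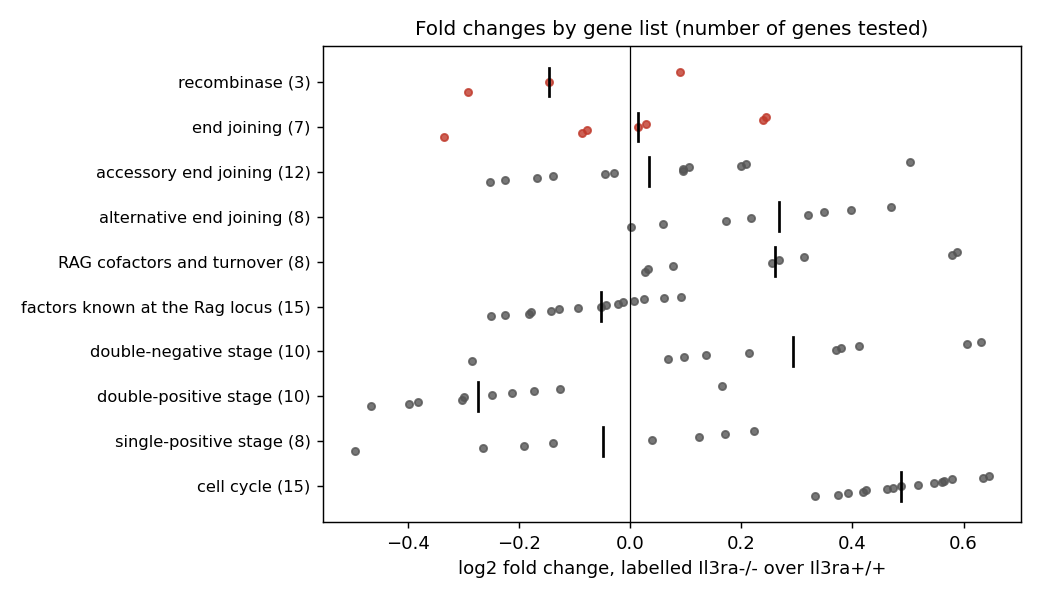
Fitted log2 fold changes (labelled Il3ra-/- over Il3ra+/+, horizontal axis) of single genes (points) in each list, with the list median (vertical bar) and the number of genes tested. Points of the recombinase and end joining lists, in red, lie on both sides of 0, whereas all points of the cell cycle, alternative end joining and RAG cofactor lists lie above 0. Ccna2 is a point in both the cell cycle and the RAG cofactor lists.

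B cells, whose progenitors also use the recombinase, had low marker levels. The 11 B cell markers summed to 32.9, 56.2 and 67.2 CPM in the libraries labelled Il3ra-/-, against 56.1, 47.5 and 54.9 CPM in Il3ra+/+ libraries. Of the markers of B cell progenitors, Vpreb1 stayed at or under 1.77 CPM and Igll1 at or under 0.191 CPM in every library. The 7 macrophage markers summed to 37.96, 66.2 and 77.7 CPM in the libraries labelled Il3ra-/-, against 67.3, 45.1 and 46.8 CPM in Il3ra+/+ libraries. The 5 dendritic cell markers ran from 11.8 to 46.4 CPM there and from 17.0 to 19.3 CPM in Il3ra+/+ libraries, and the 6 epithelial markers stayed at or under 11.8 CPM in each library. In the libraries labelled Il3ra-/- these B cell, macrophage and dendritic sums were lowest in replicate 1 and highest in replicate 3. Sums of stroma and vessel markers and of erythroid markers had the same order there. In Il3ra+/+ libraries the B cell and macrophage sums were highest in replicate 1, whereas the dendritic sum was lowest there. The part of these cells in the levels of the 10 members was not tested.

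Among 9208 other genes with a mean of at least 10 CPM, those with profiles nearest to Rag1 over the 6 libraries were Gm7353, Tcirg1 and Ubxn4, at mean absolute differences of 0.0225, 0.0277 and 0.0279 in centred log2 CPM. Nearest to Rag2 were Stip1, Ahsa1 and Zfp236, at 0.0319, 0.0322 and 0.0498, and nearest to Dntt were Thyn1, Me2 and Hars, at 0.0164, 0.0171 and 0.0173. Neither Rag gene was among the nearest 3 of the other.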

How the data were processed

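The members and gene lists were chosen with earlier results of these data known. RNA was isolated with a column kit and made into TruSeq Stranded mRNA libraries, per the labels' protocols. The authors deposited raw counts per Ensembl gene, made with STAR 2.5.4b and featureCounts on GRCm38, per the submitters' processing notes. The sources used here do not say how strand and multi-mapped reads were handled or which annotation release was used. All 55536 identifiers matched GENCODE M21, which gave symbols, positions and exon lengths.

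Genes were filtered with filterByExpr, scaled by TMM and tested with edgeR 4.0.16 under R 4.3.3, by its robust quasi-likelihood fit and F test (glmQLFit, glmQLFTest), without covariates and with Benjamini-Hochberg adjustment over 18690 genes; the common biological coefficient of variation was 18.7%. With 3 mice a side, p-values weigh the difference between genotypes against the spread between libraries, estimated with information shared over genes. Alternatives were DESeq2 1.42.0, limma-voom (limma 3.58.1), other scalings and filters, a replicate block and omitted libraries. Levels between genes were set per kilobase of the union of annotated exons. The longest transcript of each member was aligned with the annotated transcripts of all other genes. Stretches of at least 95% identity were found only where exons overlap (Rag1 and Rag2 with B230118H07Rik, Dclre1c with Suv39h2, Xrcc6 with Desi1) and in stretches of at most 182 bases in Dclre1c and Xrcc4 shared with other genes. The annotated exons of Xrcc4 also share 112 bases, 2.66% of their length, with Tmem167 on the other strand, which this search did not return. Each member had at least 314 counts in each library.

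All 10 members are named. From each list the genes of smallest unadjusted p were eligible, up to 4. Other list members named (Tcf3, Tcf12, Skp2, Mre11a, Lig3 and the cell type markers) were chosen after their values were seen.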

Additional observations from a re-analysis of the deposited data

How the results depend on the processing

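The number of members past the adjusted threshold was 0 in 14 of the 15 other fits and 1 (Dclre1c, log2 fold change -0.55, adjusted p = 0.0456) without both replicates 1. Genes called over all genes numbered 604 by DESeq2, 840 without the low-count filter, 9 with the replicate block, 762 without both replicates 1 and 8 to 29 on leaving out 1 library. Members with an unadjusted p under 0.05 numbered 1 with a filter of 1 CPM, 1 with the replicate block and 0 to 5 on leaving out 1 library. The shares of all tested genes at that level were 16.7%, 11.4% and 6.84% to 18.6%. Members without overlap numbered 1 with library totals and 2 to 4 on leaving out 1 library. Fewer libraries make a lack of overlap easier to reach, and the share over all genes was not computed in these settings. The median log2 fold change of the recombinase genes, -0.15 in all 6 libraries, was -0.32 without both replicates 1 and ran from -0.27 to -0.03 on leaving out 1 library. The Xrcc5 to Xrcc6 difference was 0.21 without both replicates 1 and ran from -0.098 to 0.12 on leaving out 1 library. Weighting genes equally gave -0.11 for the recombinase to end joining difference. Signs turned only in genes near 0. Without both replicates 1 the log2 fold changes were -0.017 for Xrcc4, -0.045 for Lig4 and 0.10 for Nhej1. On leaving out 1 library they ranged from -0.030 to 0.041 for Xrcc4, -0.021 to 0.062 for Lig4, -0.17 to 0.035 for Nhej1 and -0.18 to 0.041 for Prkdc. The causes were not tested. Same-numbered libraries did not stand out (correlations of their deviations -0.10, 0.09 and -0.12, against -0.14 to 0.19 for other pairs). With 3 libraries a side this does not exclude pairing. The block changed no member's call. The lowest counts were those of Nhej1, from 314 to 513, and Xrcc4, from 733 to 1079, where counting noise is part of the spread.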
